A study of Homo sapiens with 6 samples.

Results

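The genes described here were almost silent in AN3CA cells that carried an empty hairpin vector and reached 1 TPM or more in every library of cells that carried a hairpin against *PAX2*. They were selected on those values. A row of the expression table was taken when it stood under 0.5 TPM in all 3 shEV libraries and at 1 TPM or more in all 3 shPAX2 libraries. TPM is a read count divided by gene length and then scaled so that every library has the same sum. Names beginning with MIR, SNOR, SCARNA, LINC, RNU or RNA5 were left out, as were *AFF3*, *EVA1C*, *UNC13A* and *SEZ6L2*. Of 17471 rows, 46 met the limits and 38 were kept. The opposite limits, at least 1 TPM in shEV and under 0.5 TPM in shPAX2, took 60 rows under the same exclusions. Because the shEV and shPAX2 values chose the genes, their difference between the groups is a description and carries no test.

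AN3CA is an established human endometrial cancer line that expresses *PAX2*, a developmental transcription factor. The shEV cells received the lentiviral pGFP-C-shLenti vector without a hairpin, and the shPAX2 cells received 1 *PAX2* hairpin in the same vector. The labels and the cell line methods give this empty vector, while other passages of the study call the AN3CA control scrambled. Both were selected with puromycin, no second hairpin was measured, and no source says whether the 3 libraries of a group came from separate cultures, so the spread between them may be technical. *PAX2* itself was at 4.03, 3.66 and 2.74 TPM in the shEV libraries and at 0.916, 0.723 and 1.17 TPM in the shPAX2 libraries, a log2 fold change of -1.47 (SE 0.18, adjusted p = 0.000294 in limma). The libraries held 10730909 to 18221859 reads in shEV and 19422615 to 29405787 in shPAX2, so each shPAX2 library was deeper than each shEV library. The labels call the cells epithelial, yet *EPCAM* did not exceed 0.387 TPM and *CDH1* did not exceed 0.0851 TPM in any library. Among keratin genes *KRT18* stood at 10.2 to 17.5 TPM, while *KRT8* did not exceed 0.293 TPM and *KRT19* did not exceed 0.0697 TPM. The mesenchymal filament gene *VIM* stood at 3750 to 4410 TPM, but another mesenchymal marker, *CDH2*, did not exceed 0.0777 TPM. In bulk RNA, more cells that express a gene and more RNA per cell cannot be told apart.

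A gene can be silent because its activators are missing or because a repressor holds it off. The best known repressor of the second kind in cells outside the nervous system is *REST*, a zinc finger protein that binds a long element called RE1 beside neuronal genes and recruits *RCOR1*, *SIN3A*, histone deacetylases and the demethylase *KDM1A*. The element has a left and a right part. *PAX2*, by contrast, guides the early development of the kidney and of the Mullerian duct, from which the endometrium arises.

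RE1 was looked for because 13 of the 38 genes were grouped as neuronal or synaptic, a count with no background share. The letters searched were TTCAGCACC and GGACAGCGC, separated by 2 unspecified bases, on both strands and within 5 kb of the annotated start site of each protein-coding gene (GRCh37, GENCODE release 44). A match with at most 3 mismatches among the 18 letters was found for 6 of the 36 protein-coding genes that had been selected. These 6 matches are shown because no value of the selection rule depends on them. Both parts are in capitals and the 2 spacer bases in lower case.
CHRNB2: TTCAGCACCacGGACAGCGC
LIN28A: TTCAGCACCgtGGACAGAGC
HRH3: GGCAGCACCacGGACAGCGC
GOLGA7B: CTCAGCACAgcGGACAGCGC
ASPHD1: TTATGGACCctGGACAGCGC
RUNDC3A: CTCAGCACCtcGGAGAGCTC

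The *CHRNB2* match had 0 mismatches and lay at chr1:154540430-154540449, 185 bases after the start site, in an untranslated part of a *CHRNB2* exon. *LIN28A* had 1 mismatch, at chr1:26735188-26735207, where no gene is annotated, at -2111 from the start site. *HRH3* had 2 mismatches at chr20:60795437-60795456, at -113 from its start site and outside any annotated gene. *GOLGA7B* also had 2, at chr10:99609843-99609862, 252 bases after the start site and in an untranslated part of its exon. The *ASPHD1* match had 3 mismatches and lay at chr16:29909561-29909580, at -2126 from the *ASPHD1* start site. It fell in an intron of the neighbouring gene *SEZ6L2*, which runs on the opposite strand. The start of *SEZ6L2* lies between the match and *ASPHD1*, so the match is nearer to that start. *RUNDC3A* had 3 mismatches at chr17:42385976-42385995, 204 bases after the start site in an untranslated part of its exon. All 6 read on the plus strand of the genome.

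The 38 genes summed to 6.18 to 6.68 TPM in the shEV libraries and to 132 to 156 TPM in the shPAX2 libraries. Even in shPAX2 they were modest: the mean of a gene ran from 1.07 to 10.2 TPM with a median of 3.10 TPM, which placed the genes between the percentiles 29.8 and 50.4 of all rows. The lowest shPAX2 value of a gene exceeded its highest shEV value by 2.25-fold to 235-fold among genes with any shEV read, with a median of 10.1-fold. Groups that do not overlap are fixed by the rule here, and 15.9% of all 13163 genes tested had every shPAX2 library above every shEV library.

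**Figure D1:**
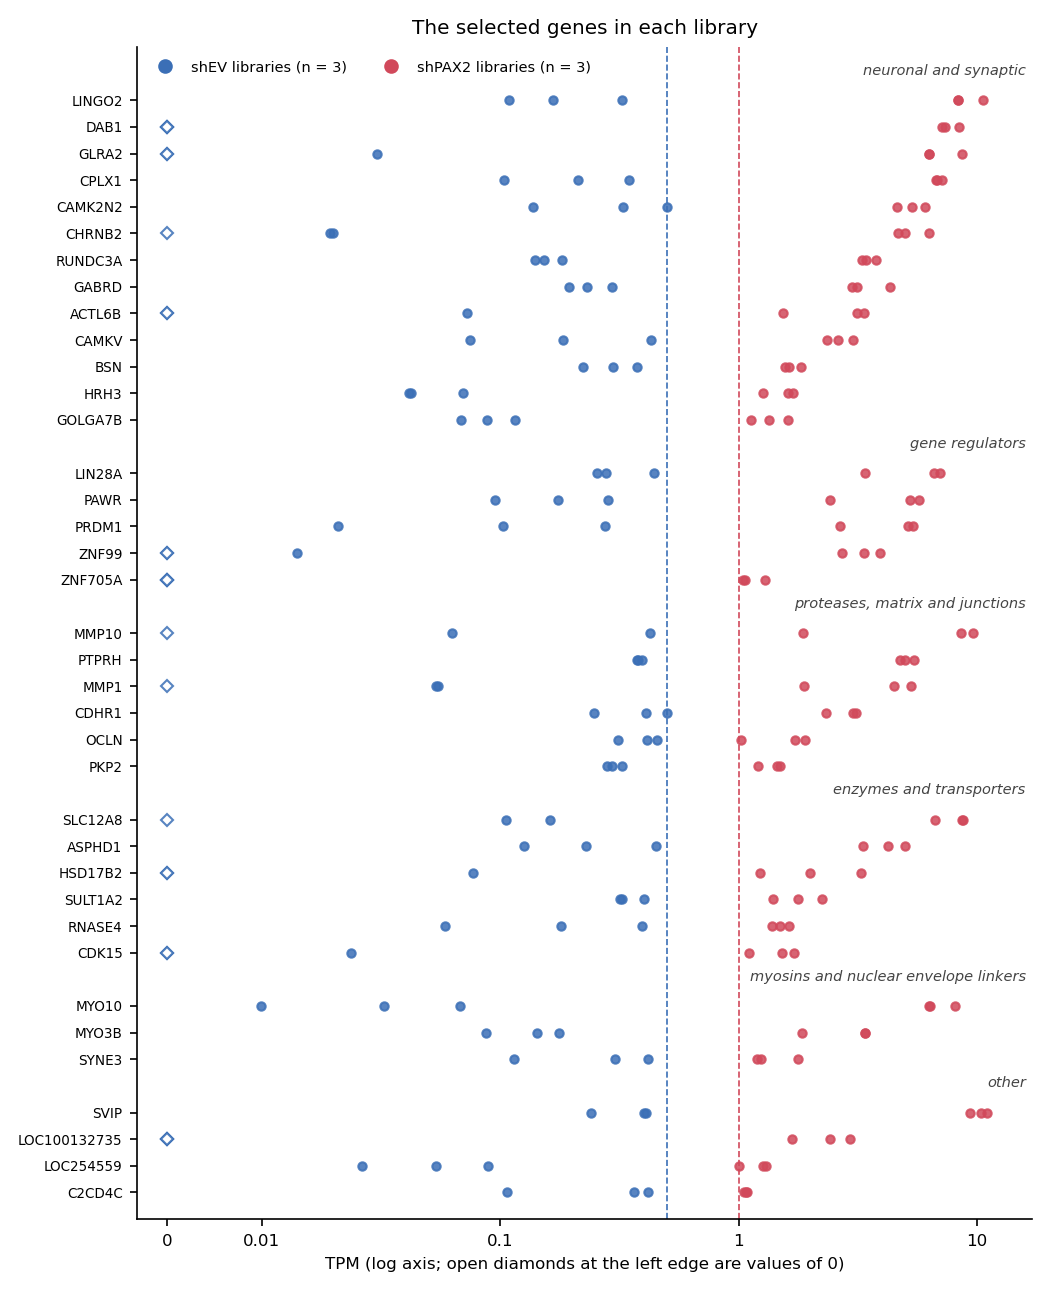
Each row is 1 of 37 of the 38 selected genes, ordered by role and by mean in shPAX2, and each point is its TPM in 1 library on a log axis, blue for shEV and red for shPAX2, with open diamonds for values of 0. The dashed lines are the limits of 0.5 and 1 TPM that chose the genes, and most genes have blue points above 0 in at least 1 library.

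Most of the genes had reads in shEV. Whole reads could be recovered from the TPM values, and only 3 genes, *DAB1*, *LOC100132735* and *ZNF705A*, had 0 reads in all 3 shEV libraries. In a further 9 no shEV library exceeded 3 reads. The remaining 26 had more than 3 reads in at least 1 shEV library, 8 had more than 3 in every one, and the highest was the 54 reads of *BSN* in shEV replicate 3. In shPAX2 the reads of a gene ran from 19 to 1413 per library. The genes were therefore low or undetected in shEV, and "detected in shPAX2 alone" does not describe 26 of the 38 at this depth.

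The limits divided a continuous range. *CAMK2N2*, *CDHR1* and *OCLN* lay just inside the shEV limit, with highest shEV values of 0.499, 0.499 and 0.455 TPM. *EFHD1*, *HCN2* and *DLL1* lay just outside it, at 0.530, 0.564 and 0.619 TPM. At the other limit, *LOC254559*, *OCLN* and *ZNF705A* were just inside with lowest shPAX2 values of 1.001, 1.02 and 1.04 TPM. *BTBD17*, *MMP24* and *JPH3* were just outside, at 0.977, 0.950 and 0.924 TPM.

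Genes of neurons and synapses formed the largest role group, with 13 of the 38 and mean shPAX2 levels of 1.36 to 9.08 TPM. Roles were assigned to the 38 genes alone, so the share of such genes among all rows is not known and no excess can be read from the 13. Receptor subunits are given first. *GLRA2*, a subunit of the inhibitory glycine receptor, was at 0, 0.0304 and 0 TPM in replicates 1 to 3 of shEV and at 8.61, 6.30 and 6.31 TPM in shPAX2 replicates 1 to 3. A single shEV read stood against 1035 shPAX2 reads, which gives a ratio of 624 with a 95% exact counting interval of 112 to 24700. *CHRNB2*, the beta2 subunit of neuronal nicotinic receptors and the bearer of the perfect RE1 match printed above, stood at 0, 0.0198 and 0.0194 TPM in shEV. Its shPAX2 values were 4.65, 5.00 and 6.27 TPM, a ratio of 344 (interval 95.1 to 2850, from 2 and 1142 reads). Such intervals cover counting error only, because the reads carry no molecular identifiers. The 2 receptor genes thus had at most 1 read in a shEV library and at least 229 in each shPAX2 library.

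*GABRD*, the delta subunit of GABA-A receptors outside the synapse, was measurable in every shEV library at 0.194, 0.294 and 0.230 TPM. It stood at 4.31, 3.12 and 2.98 TPM in shPAX2, where replicate 1 was the highest. *HRH3*, the histamine H3 receptor that restrains transmitter release, had 1 read in each shEV library and 1.26 to 1.69 TPM in shPAX2, a ratio of 32.2 (interval 10.8 to 158).

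Adaptors and membrane proteins of neurons followed. *LINGO2*, a leucine-rich repeat protein of the neuronal surface, stood at 0.109, 0.166 and 0.325 TPM in shEV and at 10.6, 8.33 and 8.35 TPM in shPAX2, 45.4-fold higher by the ratio of means. *DAB1*, the adaptor that carries the reelin signal in migrating neurons, had no read in shEV and stood at 8.38, 7.36 and 7.15 TPM in shPAX2, at least 48.0-fold higher when 3 reads per shEV library are taken as the floor. Both were tight in shPAX2, with highest and lowest libraries 1.27-fold and 1.17-fold apart. *RUNDC3A*, a RUN-domain protein enriched in neurons, stood at 0.153, 0.140 and 0.182 TPM in shEV and at 3.41, 3.75 and 3.29 TPM in shPAX2.

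Presynaptic and calcium-signalling genes rounded off the group. *CPLX1*, a complexin that clamps the vesicle fusion machinery, stood at 0.348, 0.211 and 0.103 TPM in shEV and at 7.11, 6.76 and 6.70 TPM in shPAX2, which was 31.0-fold higher. *BSN*, the giant scaffold of the presynaptic active zone, had the most shEV reads, 19, 42 and 54, and stood at 1.56 to 1.83 TPM in shPAX2. *CAMK2N2*, an inhibitor of calcium/calmodulin kinase II, stood at 0.137, 0.499 and 0.326 TPM in shEV and at 6.05, 5.35 and 4.60 TPM in shPAX2. The shEV values of *CAMK2N2* came from 1 to 6 reads, so their order among shEV libraries has little precision. *CAMKV*, a kinase-like vesicle protein without known catalytic activity, stood at 0.431, 0.0747 and 0.183 TPM in shEV and at 2.35, 3.01 and 2.61 TPM in shPAX2. *GOLGA7B*, an accessory protein of palmitoyl transferases, was at 1.13 to 1.61 TPM in shPAX2 and 15.0-fold above shEV.

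*ACTL6B*, the actin-like subunit that replaces *ACTL6A* in the neuronal form of the BAF chromatin remodeller, had a single read over the 3 shEV libraries, with values of 0, 0 and 0.0723 TPM. In shPAX2 it stood at 1.54, 3.15 and 3.35 TPM. The gene that it replaces in neurons was far more abundant in both groups: *ACTL6A* stood at 93.9 to 98.0 TPM in shEV and 89.1 to 95.4 TPM in shPAX2, a log2 fold change of -0.04 (SE 0.06, adjusted p = 0.553 in limma) that became 0.07 when the libraries were scaled by median ratios. The general neuron markers that were in the table, *RBFOX3*, *ELAVL3*, *SYN1* and *SNAP25*, summed to 0 to 0.0422 TPM in shEV and to 0.190 to 0.469 TPM in shPAX2, and none of the 4 had a mean of 0.5 TPM over the libraries.

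Gene regulators made up 5 of the 38. *LIN28A*, an RNA-binding protein of early embryonic cells that blocks the maturation of let-7 microRNAs, stood at 0.278, 0.254 and 0.441 TPM in shEV and at 3.40, 6.97 and 6.59 TPM in shPAX2, 17.4-fold higher. Its relative *LIN28B* was already expressed and also higher, at 18.9, 18.2 and 20.3 TPM in shEV against 35.9, 44.1 and 46.0 TPM in shPAX2 (log2 fold change 1.11, SE 0.0954, adjusted p = 4.24e-05 in limma). The difference in *LIN28B* exceeded the spread between libraries in each group. *LIN28B* lies on chromosome 6, whose tested genes were shifted upward as a set in shPAX2. Their log2 fold changes centred on a median of 0.389, while those of all other chromosomes centred on -0.116. The part of this shift in the *LIN28B* difference was not tested. *PRDM1*, a repressor that drives B cells to become plasma cells, stood at 0.276, 0.0210 and 0.103 TPM in shEV and at 2.65, 5.37 and 5.13 TPM in shPAX2. *PAWR*, a pro-apoptotic regulator first found as a partner of *WT1*, stood at 0.0955, 0.174 and 0.284 TPM in shEV and at 2.41, 5.21 and 5.73 TPM in shPAX2. *LIN28A*, *PRDM1* and *PAWR* were each lowest in shPAX2 replicate 1.

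*ZNF99*, a KRAB-type zinc finger gene of the chromosome 19 clusters, had 1 read in shEV and stood at 2.70, 3.36 and 3.91 TPM in shPAX2. *ZNF705A*, another zinc finger gene, had 0 reads in shEV and 1.04 to 1.30 TPM in shPAX2. Both belong to families with near-identical copies, and how reads that match several copies were counted is not given in the sources used here, so these values are uncertain.

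Genes of the matrix, of proteolysis and of cell junctions numbered 7. *MMP10*, the protease stromelysin-2, stood at 0.424, 0 and 0.0630 TPM in shEV and at 1.86, 9.57 and 8.56 TPM in shPAX2. *MMP1*, the interstitial collagenase that is encoded 8.77 kb away on chromosome 11, stood at 0, 0.0551 and 0.0539 TPM in shEV and at 1.88, 4.48 and 5.29 TPM in shPAX2. The ratio for *MMP1* was 87.1 (interval 23.9 to 723). The same library was low for both proteases.

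*PTPRH*, a receptor-type tyrosine phosphatase, was even in both groups, at 0.379, 0.375 and 0.395 TPM in shEV and 5.46, 4.97 and 4.75 TPM in shPAX2. *CDHR1*, a cadherin-related protein of photoreceptors, stood at 0.499, 0.246 and 0.408 TPM in shEV and at 2.32, 3.01 and 3.11 TPM in shPAX2. *OCLN*, a tight junction protein, and *PKP2*, a plakophilin of desmosomes, had smaller ratios of 3.93 and 4.62. These junction genes were not joined by the wider epithelial set: 1 of 7 epithelial markers in the table had a mean of 0.5 TPM or more, and the summed level of the 7 was 11.2 to 13.3 TPM in shEV and 12.4 to 18.1 TPM in shPAX2.

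Of 6 enzymes and transporters, *SLC12A8*, a member of the cation-chloride cotransporter family, was the most abundant. It stood at 0.106, 0.161 and 0 TPM in shEV and at 6.64, 8.72 and 8.69 TPM in shPAX2, 90.1-fold higher. *ASPHD1*, a protein with an aspartate beta-hydroxylase domain, stood at 0.126, 0.230 and 0.450 TPM in shEV and at 3.32, 4.97 and 4.23 TPM in shPAX2. *HSD17B2*, which oxidises estradiol to the weaker estrone in secretory endometrium, had 1 read in shEV and 1.23, 3.26 and 2.001 TPM in shPAX2, a ratio of 71.1 with a wide interval of 12.5 to 2830. *SULT1A2*, a phenol sulfotransferase, *RNASE4*, a secreted ribonuclease, and *CDK15*, a cyclin-dependent kinase, had mean shPAX2 levels of 1.44 to 1.80 TPM.

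The remaining genes spanned motors, envelope proteins and genes of little known function. *MYO10*, the myosin that carries cargo to the tips of filopodia, had the most shPAX2 reads, 704 to 1413 per library. Its level was 0.0326, 0.00990 and 0.0678 TPM in shEV and 8.08, 6.35 and 6.31 TPM in shPAX2, 188-fold higher by the ratio of means. *MYO3B*, a class III myosin of actin protrusions, stood at 0.176, 0.142 and 0.0870 TPM in shEV and at 1.85, 3.38 and 3.40 TPM in shPAX2. *SYNE3*, the nesprin that links the nuclear envelope to intermediate filaments, had a ratio of 5.06.

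*SVIP*, a small inhibitor of endoplasmic-reticulum-associated degradation, was the most abundant of all 38 in shPAX2. It stood at 0.402, 0.407 and 0.239 TPM in shEV and at 11.1, 10.4 and 9.30 TPM in shPAX2 (10.2 ± 0.886 TPM, SD, n = 3). The long noncoding RNA *LOC100132735*, now named *FILNC1*, had 0 reads in shEV and stood at 1.67, 2.41 and 2.93 TPM in shPAX2, at least 7.37-fold higher. *LOC254559*, the host transcript of a microRNA gene, and *C2CD4C*, a C2-domain gene, were at 1.001 to 1.31 TPM and 1.05 to 1.09 TPM in shPAX2.

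The shPAX2 libraries did not carry all of these genes equally. Replicate 1 was lower than the mean of replicates 2 and 3 by at least 1.5-fold in 10 of the 38 genes, or 26.3%, and higher by that fold in 0. They were *MMP10*, *MMP1*, *LIN28A*, *PAWR*, *PRDM1*, *ACTL6B*, *MYO3B*, *LOC100132735*, *HSD17B2* and *OCLN*. Among 3306 other rows at 1 TPM or more in every shPAX2 library and not above the highest of the 38 genes, 3.21% were lower by that fold and 4.02% were higher. The gap was largest in *MMP10*, where the highest shPAX2 library exceeded the lowest by 5.15-fold, and the median over the 38 genes was 1.36-fold. Replicate 1 was also the deepest library, and the part of depth in this pattern was not tested. Genes such as *GLRA2*, *MYO10* and *LINGO2* went the other way, with replicate 1 at 1.27 to 1.36 times the mean of the others.

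**Figure D2:**
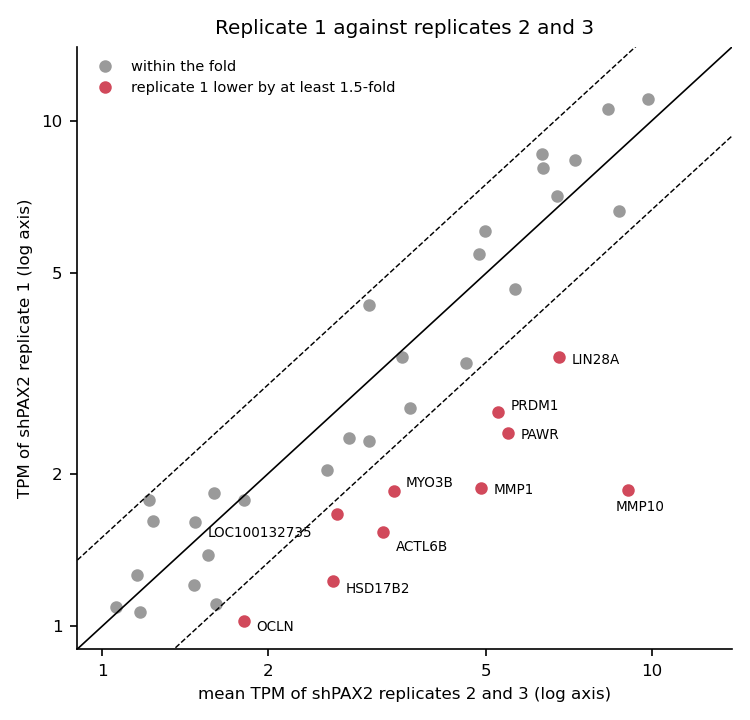
Each point is 1 of the 38 genes, with the mean TPM of shPAX2 replicates 2 and 3 on the horizontal log axis and the TPM of shPAX2 replicate 1 on the vertical log axis; the solid line marks equality and the dashed lines a 1.5-fold difference. The 10 red, named genes lie below the lower dashed line and 0 lie above the upper one.

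The match to RE1 was then compared with other genes. It was present at 3 or fewer mismatches in 16.7% of the 36 selected protein-coding genes, in 1.76% of the 11556 other protein-coding genes tested and in 2.19% of all 14838 protein-coding rows matched to the annotation. At 2 or fewer mismatches the shares were 11.1%, 0.433% and 0.66%. Of the 13 neuronal and synaptic genes, 4 had a match at 3 or fewer mismatches, against 2 of the other 23. Rows under 0.5 TPM in every library had such a match in 3.63% of 2924 cases. A match is a description of letters and does not show that *REST* binds there.

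The rule was applied to every row, so genes outside the selection are those that failed a limit, some narrowly, such as *HCN2* and *MMP24*. A gene is called here when limma gave an adjusted p under 0.05 and the means of log2(TPM + 0.5) differed by 1 or more. By that call 1.43% of the 13163 genes tested were higher (188 genes) and 3.11% were lower (410) in shPAX2. These totals include the 38 genes, which were selected for being higher, so the 1.43% is not a share of genes outside the selection. The count of higher genes was 100 without shPAX2 replicate 2 and 104 without shPAX2 replicate 3. Among the 50 other genes tested with a match at 2 or fewer mismatches, 6 were called higher (12.0%) and 0 lower. The 6 were *VGF*, *SYP*, *CHGA*, *HCN2*, *MMP24* and *CHGB*, all of which are named because the count is small. With 3 mismatches 7 of 153 were called higher (4.58%) and 5 lower, with 4 mismatches 15 of 1185 (1.27%) were higher and 40 lower, and with 5 or more 95 of 10168 (0.934%) were higher and 320 lower. The median log2 fold change of the 50 genes was 0.07, against -0.101 for genes with at least 5 mismatches, so most genes with a close match moved little. Where a gene had at least 0.5 TPM in every shEV library, 2 of 43 genes with the closest matches were called higher (4.65%), *VGF* and *SYP*, against 0.668% of 10023 with at least 5 mismatches. The other 4 were, like the 38, low in shEV and could pass the filter on low values through shPAX2. Without any 1 of the 3 shPAX2 libraries, 3 genes with these closest matches were called higher. The filter on low values asks for 0.5 TPM in 3 libraries, so those counts could not hold *CHGA*, *CHGB* or *MMP24*.

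**Figure D3:**
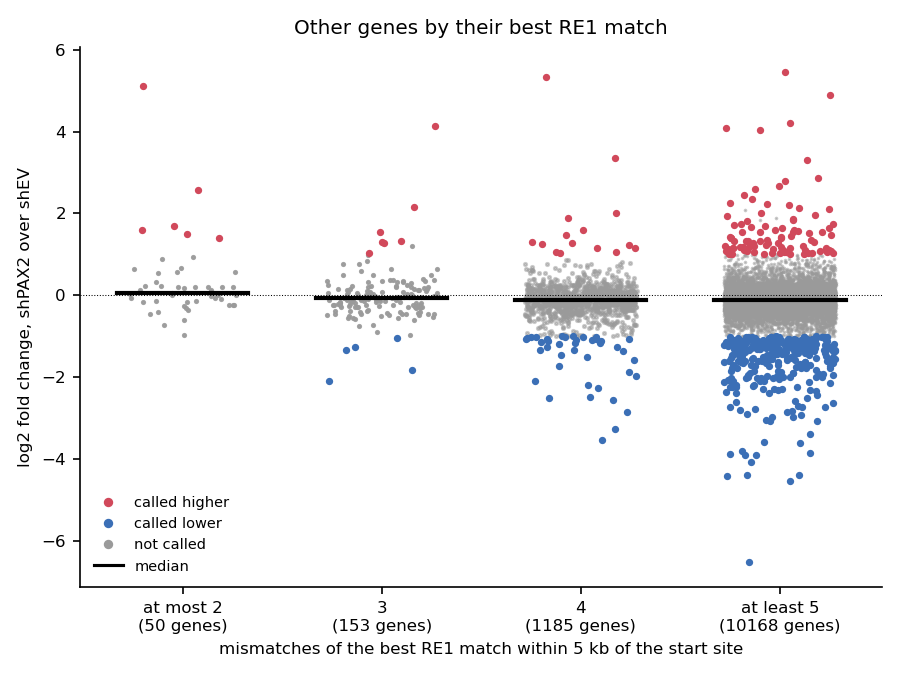
Points are protein-coding genes tested outside the selection, grouped on the horizontal axis by the mismatches of their best RE1 match within 5 kb of the start site, with the log2 fold change of shPAX2 over shEV on the vertical axis and black bars for medians. Of the 50 genes at 2 or fewer mismatches 6 are red, called higher, and 0 are blue, called lower, while the medians of all 4 classes lie near 0.

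A list of neuronal genes, named from textbook knowledge as genes with RE1 sites, was examined in the same fit. Of 37 genes listed, 29 were in the table, *CPLX1* and *RUNDC3A* are among the 38, and 13 others were tested. The rest of those in the table had means under 0.5 TPM in both groups and were not tested, so the counts of calls leave them out. By the search above, 9 of the 27 listed genes outside the selection (33.3%) had a match at 3 or fewer mismatches. Of the 13 tested, 8 were called higher and 0 lower, where 1.43% of all genes tested were called higher and 3.11% lower. Their median log2 fold change was 1.35, against -0.102 over all genes tested. Of the 13, 3 passed the filter on low values through shPAX2 alone, and 2 of these, *CHGA* and *CHGB*, were called higher. *VGF*, a neurosecretory peptide precursor, stood at 0.657, 0.665 and 0.737 TPM in shEV and at 40.3, 44.6 and 37.2 TPM in shPAX2 (log2 fold change 5.11, SE 0.0967, adjusted p = 7.65e-09 in limma). *SYP*, the synaptic vesicle protein synaptophysin, went from 4.75, 5.77 and 6.05 TPM to 36.4, 33.5 and 34.9 TPM (log2 fold change 2.56, SE 0.0928). *MAPK8IP2*, a scaffold of the JNK pathway in neurons, went from 5.99, 6.72 and 5.29 TPM to 27.7, 29.3 and 24.9 TPM (log2 fold change 2.10, SE 0.0987). Each of these 3 genes had every shPAX2 library above every shEV library, as did 15.9% of all 13163 genes tested. Among the 10 listed genes with at least 0.5 TPM in every shEV library, 6 were called higher. *VGF* was put on the list when its rise was known, and without it 7 genes remained called. *VGF*, *SYP*, *CHGA* and *CHGB* are among both these 8 genes and the 6 called genes with the closest RE1 matches, so the counts overlap.

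The repressor complex itself was expressed in both groups. *REST* stood at 34.4, 31.4 and 36.3 TPM in shEV and at 19.3, 21.5 and 21.1 TPM in shPAX2, a log2 fold change of -0.71 (SE 0.0739, adjusted p = 0.000126 in limma), with no overlap between the groups and short of the fold threshold. The share of all genes with every shPAX2 library below every shEV library was not counted. Of the 10 genes of the complex, 0 passed both thresholds. By adjusted p alone 6 were lower and 1, the deacetylase *HDAC2*, was higher, where 30.5% of all genes tested were lower and 12.2% were higher by that criterion. *SIN3A* had a log2 fold change of -0.46 (SE 0.0560) and *RCOR1* one of -0.23 (SE 0.0688). The 6 became 3 when the libraries were scaled by median ratios, where *RCOR1* had an adjusted p of 0.181 and *KDM1A* one of 0.293 in limma, and 3 without shEV replicate 3 or without shPAX2 replicate 2. The part of *REST* in the levels of the 38 genes was not tested.

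**Figure D4:**
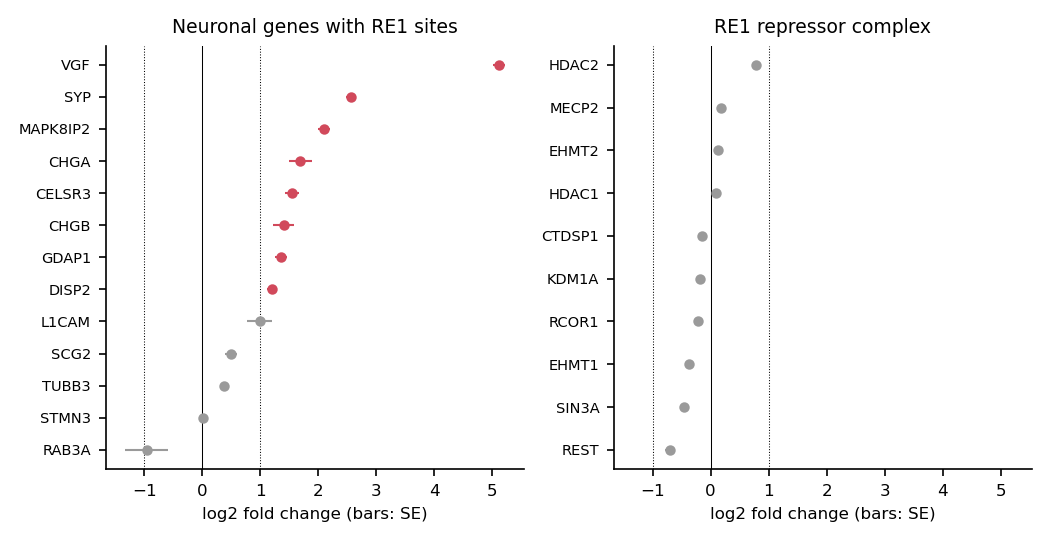
The log2 fold change of shPAX2 over shEV, with its standard error as a bar, is plotted for the tested genes outside the selection on the list of neuronal genes with RE1 sites (left) and in the repressor complex (right); dotted lines mark a log2 fold change of -1 and 1. On the left 8 of 13 genes are red, called higher, led by *VGF* at 5.11, and on the right all 10 lie within the dotted lines, *REST* lowest at -0.71.

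Other lists, of germline, developmental, squamous, cytokine and polycomb genes, held none of the 38. Of germline and cancer-testis genes, 8 were tested and 1, *SSX1*, was called higher. Among 25 developmental transcription factors tested, *EMX2*, *PAX5* and *SIX2* were called higher, and *FOXA1* and *GATA3* lower, with a median log2 fold change of -0.263. *EMX2* and *PAX5* passed the filter on low values through shPAX2 alone, and of the 23 factors with at least 0.5 TPM in every shEV library 1, *SIX2*, was called higher. Without any 1 shPAX2 library 1 of the factors was called higher, and without any 1 shEV library 1 was called lower. Squamous genes gave 1 call each way among 4 tested, *SFN* higher and *CNFN* lower, and of 3 cytokine genes *CCL5* was called lower. *CNFN* lost its call without shEV replicate 1 or 3, and *CCL5* without any 1 of the shEV libraries. All 28 polycomb genes were expressed and 0 passed the threshold in limma, with 7 of the 28 above a log2 fold change of 0.

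The 38 genes were spread over 18 chromosomes, with at most 5 on 1 of them, chromosome 1. Only *MMP10* with *MMP1* and *CAMKV* with *BSN* lay within 1 Mb of each other, the latter pair 186 kb apart on chromosome 3. To see whether the genes around them moved too, the nearest tested gene on either side was taken where it lay within 100 kb and did not overlap. Of 46 such neighbours, 3 were called higher (6.52%) and 0 lower, with a median log2 fold change of -0.00965. Of the 42 neighbours with at least 0.5 TPM in every shEV library, 1 was called higher. The neighbours of *CHRNB2* are an example: *ADAR*, 1682 bases away, had a log2 fold change of -0.12 (SE 0.0535), and *UBE2Q1*, at 8750 bases, one of 0.12 (SE 0.0644).

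The exceptions included *SULT1A1* and *CLEC4A*. *SULT1A1*, a near-identical relative of *SULT1A2* at 8146 bases, went from 7.50, 5.52 and 6.79 TPM in shEV to 18.4, 19.1 and 16.8 TPM in shPAX2 (log2 fold change 1.40, SE 0.11, adjusted p = 2.66e-05 in limma). *CLEC4A*, next to *ZNF705A*, went from 1.02, 0.442 and 0.173 TPM to 1.53, 1.68 and 1.68 TPM, and its call was lost without shEV replicate 3. Reads of *SULT1A1* and *SULT1A2* may have been divided between the copies, so their values are not separate observations. *SEZ6L2*, left out by name, lay 825 bases from *ASPHD1* and stood at 0.187 to 0.255 TPM in shEV and at 10.9 to 13.0 TPM in shPAX2.

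Some of the genes share their position with another gene. *RNASE4* shares its start region and strand with *ANG*, which encodes angiogenin and went from 0.141, 0.0855 and 0.167 TPM to 0.839, 1.79 and 1.55 TPM (log2 fold change 1.55, SE 0.227, adjusted p = 0.000818 in limma). *ZNF705A* overlaps *FAM66C* on the same strand, which went from 1.37, 2.11 and 1.09 TPM to 5.20, 4.09 and 3.30 TPM (log2 fold change 1.23, SE 0.214). Reads of overlapping genes on the same strand could be assigned to either. *PRDM1* overlaps *ATG5* on the opposite strand, and *ATG5* had a log2 fold change of 0.74 (SE 0.0668). *PRDM1* and *LOC100132735* are the 2 selected genes on chromosome 6, where the median log2 fold change of the tested genes was 0.389 against -0.116 on the other chromosomes. The *PRDM1* ratio was 32.9 on the linear scale.

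**Figure D5:**
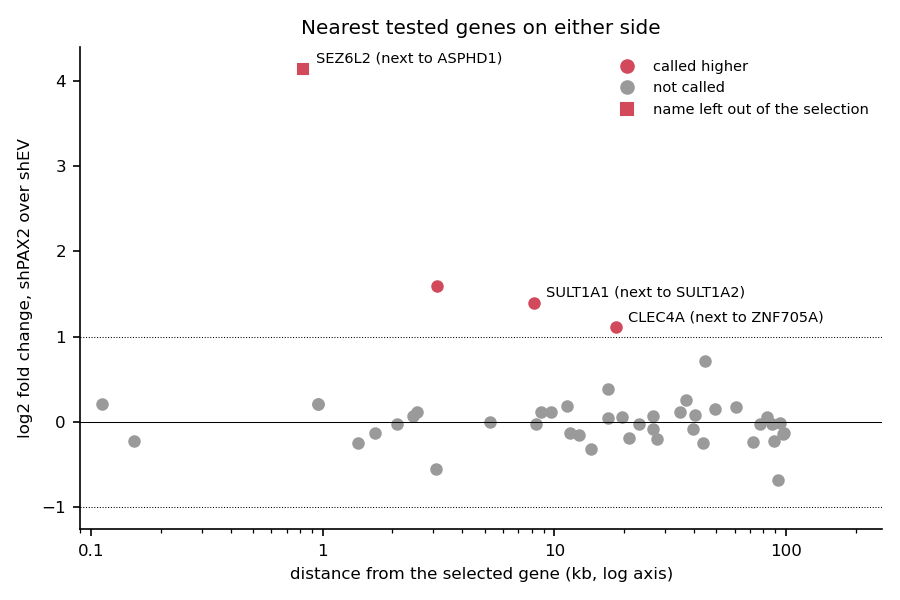
The nearest tested genes within 100 kb of a selected gene are plotted by distance in kb on a log axis against their log2 fold change, with dotted lines at -1 and 1, and a square for *SEZ6L2*, whose name was left out. Of the 46 round points 3 are red, called higher, and the others lie between the dotted lines.

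Rows whose symbols share the letters before the number, called family relatives here, were examined in the same fit. Shared letters do not show a shared family: the kinases *CAMK4* and *CAMK1D* were matched to the kinase inhibitor *CAMK2N2* in this way. The counts therefore describe symbols, not gene families. Of 97 relatives tested, 4 were called higher (4.12%) and 6 lower (6.19%), with a median log2 fold change of -0.185. Those higher were *LIN28B*, *SULT1A1*, *SULT4A1* and *MMP24*, and *MMP24* missed the selection only by its shPAX2 limit. *SULT4A1* and *MMP24* passed the filter on low values through shPAX2 alone, and of the 93 relatives with at least 0.5 TPM in every shEV library 2 were called higher and 6 lower. Without any 1 shPAX2 library 2 relatives were called higher. Those lower included *CAMK4*, *PRDM6*, *CAMK2N1*, *CAMK1D* and *DAB2*. Some relatives went opposite to the selected gene: *CAMK2N1*, the other inhibitor of calcium/calmodulin kinase II, went from 63.2, 53.9 and 57.9 TPM to 19.6, 15.2 and 20.2 TPM (log2 fold change -1.65, SE 0.112, adjusted p = 2.12e-05 in limma) while *CAMK2N2* was higher in shPAX2. *DAB2* stood at 26.8 to 29.6 TPM in shEV and at 12.7 to 13.5 TPM in shPAX2, with a log2 fold change of -1.07 (SE 0.0658) that became -0.96 under scaling by median ratios, short of the threshold. *CAMK4* had the widest fall of the relatives, from 13.3, 14.1 and 15.1 TPM to 0.117, 0.331 and 0.183 TPM (log2 fold change -4.38, SE 0.142).

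Promoter sequence from 250 bases before to 50 bases after the start (RefSeq, GRCh38.p14) was at hand for 24 of the 38 genes. The number of CpG dinucleotides in it had a median of 23 and ran from 1 to 44. Its median was 27 in 9066 other tested genes and 13 in 2161 rows under 0.5 TPM in every library. The AP-1 letters TGAGTCA, read on both strands, occurred in 2 of the 24 promoters, those of *DAB1* and *ZNF705A*, or 8.33%, against 4.92% of all 27305 promoters and 2.75% of those of the 9066 tested genes. The paired-domain core letters GTCACGC occurred in 1, that of *CDHR1*, or 4.17%, near the 4.05% of the tested genes (2.61% of all promoters). A second paired-domain form, GTCATGC, occurred in 0 of the 24, against 1.14% of the tested genes, and the CRE letters TGACGTCA in 0, against 3.28%.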

How the data were processed

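The authors deposited TPM values for 17471 genes in 6 libraries (3 shEV, 3 shPAX2). Per the labels, the libraries were stranded total RNA libraries, and the submitters' processing notes name bcl2fastq, STAR, Subread, featureCounts and edgeR and the build hg19, with no role stated. How the TPM values were computed from reads is not given in the sources used here. Within each row the values were ratios of whole numbers (largest relative deviation 7.15e-14, 100.0% of rows), and reads are the smallest whole numbers in those ratios.

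Genes at 0.5 TPM or more in at least 3 libraries were tested with limma 3.58.1 in R 4.3.3 on log2(TPM + 0.5), 3 against 3, with no covariate, robust and trended moderation and Benjamini-Hochberg adjustment over all 13163 genes, two-sided. This scale understates changes of low genes. The fit was checked on simulated data. All 38 selected genes passed the filter through the shPAX2 libraries. Folds of selected genes are ratios of mean TPM. With 0 shEV reads a floor of 3 reads per library was used, and with at most 3 shEV reads in each library the pooled reads were compared, with 95% exact binomial intervals.

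Symbols were matched to GENCODE 44 on GRCh37 for 95.7% of rows (15141 directly, 1219 by older symbols, 362 by RefSeq gene ID). Values in every library are given for the 25 genes with the highest mean in shPAX2. Outside the selection, up to 3 called genes with the largest change per list or neighbour group were named. Some genes that these rules take are not reported here. Others were named where counts were small or as examples chosen after their values were seen. The selected genes and the lists were chosen with earlier results of these data known, so they give no independent support. Other pseudocounts, filters, scalings, omitted libraries, a replicate block and voom were tried.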

Additional observations from a re-analysis of the deposited data

How the results depend on the processing

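The number of selected genes was 17 with a shEV limit of 0.25 TPM, 20 with a shPAX2 limit of 2 TPM, 59 with the limits set on group means, where all 38 remained, and 39 to 43 with 1 library left out. Leaving out 1 library gave 100 to 198 genes called higher, 2 to 4 family relatives called higher and 3 to 6 genes with an RE1 match called higher. The same omissions gave 1 to 3 developmental factors higher and 1 to 2 lower, 0 to 1 neuronal listed genes lower, 0 to 1 germline genes lower, 0 to 1 squamous genes lower and 0 to 2 cytokine genes lower. With only 2 shPAX2 libraries a gene near 0 in shEV cannot reach the filter of 3 libraries.

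A pseudocount of 1 TPM left 2 family relatives higher, 1 developmental factor higher, 1 lower and 0 cytokine genes lower. The filter at 1 TPM gave the same 4 counts, 2, 1, 1 and 0, and 3 genes with an RE1 match called higher. That count was 2 among genes with at least 0.5 TPM in every shEV library, a subset chosen after seeing the data. A pseudocount of 0.1 TPM called 1 germline gene lower. Voom on the recovered reads, also chosen after seeing the data, called 1 neuronal listed gene, 1 germline gene and 2 squamous genes lower. Of 285 such counts and values under all alternatives, 244 stayed within 1.5 times of the main count or on their side of the threshold. Over 40 single genes, 453 of 475 values kept their direction and side of the threshold, 21 lost the call and 1 changed sign, *ACTL6A* at 0.0681 under scaling by median ratios. That scaling moved the median log2 fold change of all genes tested by 0.108 and gave 230 higher and 341 lower, raising the share of higher among called genes from 31.4% to 40.3%. The cause of any of these shifts was not tested.

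Same-numbered libraries had correlated deviations of -0.0523, 0.0815 and 0.0014, so the numbers were not taken to pair the samples. A replicate block gave 186 genes higher and 402 lower and left *PAX2* at -1.47. Its counts for the lists, the neighbours and the relatives equalled those without the block. Depth limits the shEV levels of the selected genes: in 12 of the 38 no shEV library exceeded 3 reads.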

Other observations

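Of the rows that met the same limits and were left out by name, *MIR5092* lies within *SLC12A8* on the same strand. It was listed at 0 TPM in all 3 shEV libraries and at 9.65, 5.90 and 5.82 TPM in shPAX2 replicates 1 to 3, where *SLC12A8* stood at 6.64, 8.72 and 8.69 TPM. Total RNA reads of the host transcript and of the short gene cannot be told apart here. *MIR30C1*, *MIR561* and *MIR647* were also at 0 TPM in every shEV library and at 1.15 to 6.41 TPM in shPAX2, over lengths too short for these values to be set beside those of long genes.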
